A study of Mus musculus with 12 samples.

Results

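The genes described are 39 mouse genes of glutathione and NRF2 defence: the transcription factor NRF2 (gene Nfe2l2) and its inhibitor KEAP1, enzymes and a transporter that NRF2 is known to induce, the enzymes that make, recycle and use glutathione, and the glutathione transferases. They were chosen by name, a gene entering when the gene name column of the array files held its symbol, and that rule uses no measured value. A probe of that name was present for 38 of the 39, Gsta1 being the exception. Of these 38, 35 were measured, each with its brightest probe well above background on all 12 arrays. Akr1b7, Slc7a11 and Mgst2 were well above background on 1 array each and were not tested. The arrays carry 34797 gene names, of which 21238 were tested.

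Liver RNA of male ICR mice, 5 weeks old and adapted for 1 week, was measured on 12 Agilent 1-colour arrays, with 6 treatments at day 7 and day 2 and 1 array per group. Whether the RNA on an array came from 1 animal or from several is not stated, so p-values measure only the spread between these arrays, which may be partly technical. The groups were ATRA+DEN, DEN, ATRA, vehicle, G0s2 siRNA and control siRNA. DEN (diethylnitrosamine, a liver carcinogen that cytochrome P450 enzymes convert to a DNA-alkylating species) was dissolved in drinking water (80 mg/L, a dose near 400 µg daily), as was ATRA (all-trans retinoic acid, which vitamin A is converted to; 30 mg/L, near 150 µg daily). ATRA+DEN mice had both, and the labels call the mice with neither vehicle. The siRNA mice had 1.6 nmol of G0s2 or control siRNA injected into a vein with a lipid carrier. The protocol puts that injection on the day before DEN, but the labels of the siRNA arrays do not name DEN, so whether those mice drank it is not stated. Groups follow the titles. On 3 arrays of day 7 another label, the characteristic for treatment, gives something else: DEN for the ATRA+DEN title, ATRA for the DEN title and ATRA+DEN for the ATRA title.

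KEAP1 holds NRF2 in the cytoplasm and hands it to a ubiquitin ligase for destruction. When electrophiles or oxidants modify cysteines of KEAP1, NRF2 escapes, enters the nucleus, pairs with a small MAF protein and binds the antioxidant response element in the promoters of detoxifying genes. Glutathione is built from glutamate, cysteine and glycine by glutamate-cysteine ligase (Gclc and Gclm) and glutathione synthetase (Gss), and the liver, rich in glutathione transferases, joins it to reactive compounds and exports them.

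The antioxidant response element is the sequence through which NRF2 acts, so its core, TGACNNNGC (N is any base), was searched on both strands of the RefSeq promoter windows of the genes, which run from 250 bases before to 50 bases after the annotated start on GRCm38.p6. At least 1 window was matched for 34 of the 39 genes. The core was found in 8 of these 34 genes (23.5%), against 14% of all 27025 genes with a window. Counted by window, 9 of the 47 windows of these genes held it, against 12.4% of all 32851 windows. Windows of Gstt2, Gsr, Hmox1, Gsta4 and Gclc were not used here. The 9 matches follow, printed 5′ to 3′ on the strand of the gene, with the core, or its reverse complement where it lies on the other strand, in capitals.

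Gsta3 (chr1:21240454-21240482, plus strand): aactcaggcaTGACATTGCatttttcttc
Nfe2l2 (chr2:75704885-75704913, minus strand): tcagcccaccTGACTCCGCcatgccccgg
Srxn1 (chr2:152105542-152105570, plus strand): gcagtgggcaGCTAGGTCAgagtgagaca
Gstm5 (chr3:107895802-107895830, plus strand): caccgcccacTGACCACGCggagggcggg
Gclm (chr3:122245413-122245441, plus strand): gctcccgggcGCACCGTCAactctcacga
Mgst1 (chr6:138140461-138140489, plus strand): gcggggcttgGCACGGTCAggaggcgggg
Txnrd1 (chr10:82859104-82859132, plus strand): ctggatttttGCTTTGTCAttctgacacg
Abcc4 (chr14:118706226-118706254, minus strand): gccccgagagGCGGGGTCAgggcgggccg
Abcc4 (chr14:118676936-118676964, minus strand): aataatctcgTGACTCTGCcgtggtggat

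In Nfe2l2, Gsta3 and Gstm5 the core reads in the direction of the gene and starts 240, 121 and 42 bases before the annotated start. In Gclm, Txnrd1 and Mgst1 it lies on the other strand, beginning 134, 92 and 56 bases before the start, and in Srxn1 it lies within the transcript, 29 bases in. Abcc4 has a match in the windows of 2 alternative starts. Of the 9 members higher in every DEN pair, described below, 7 had a window and 2 of the 7 held the core. A match of letters shows neither binding nor use of the site in these livers. Sequence outside the windows was not searched, so a gene not listed may hold the core elsewhere.

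The second set of sequences bears on which gene a probe reports. The probe named Gsta2 (mm9 chr9:78178856-78178915, minus strand) and the probe named Gm3776 (mm9 chr9:78116894-78116953, plus strand), which carries the RefSeq accession of Gsta1, overlap over 50 bases with 4 mismatches. The first 30 bases of that overlap, bases 11 to 40 of the Gsta2 probe and 1 to 30 of the Gm3776 probe, are shown with mismatches in capitals.

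Gsta2 probe: ctggcctctaatTgtttgcaattataaaaT
Gm3776 probe: ctggcctctaatGgtttgcaattataaaaA

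With 46 of 50 bases shared, the Gsta2 probe may also report Gsta1 RNA. How far it does was not tested, and every value given for Gsta2 has that limit. Another probe, named Gm10639, carries the accession of Gsta2 and does not overlap it in this way.

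Levels are log2 of the processed spot intensity minus the 75th percentile of the same array, so 0 is that percentile, and a difference of 1 is 2-fold. Of the 55681 probes, 41.0% to 50.7% passed the well-above-background call per array and 0 were saturated. All 10 hepatocyte markers listed were well above background on every array. Cdkn1a, a p53 target that marks DNA damage, stood at 6.62 with ATRA+DEN and 6.83 with DEN at day 7 and at 3.39 and 4.02 at day 2. It stood at 2.84 with ATRA and 1.96 with vehicle at day 7, and at 2.13 and 1.12 at day 2. The siRNA arrays lay with the DEN arrays, at 6.82 with G0s2 siRNA and 5.56 with control siRNA at day 7 and 3.37 and 4.00 at day 2. Cyp26a1, the retinoic acid hydroxylase that ATRA induces, was between 4.34 and 7.10 on the 4 arrays titled with ATRA and between 0.42 and 2.38 on the other 8, and G0s2 was lower with G0s2 siRNA (2.26 and 1.99 at day 7 and day 2) than with control siRNA (3.45 and 3.84). Cdkn1a and Cyp26a1 follow the titles. G0s2 does so between the siRNA arrays, but its lowest level of the 12, 0.44, was on the ATRA+DEN array of day 2, and it was 2.83 on that of day 7. The arrays of vehicle and control siRNA at day 2 stand apart. The vehicle array of day 2 had the highest median level of 3 pancreas markers measured (0.65, against -3.33 to -1.64 on the other 11) and of 5 red cell markers (5.31, against 1.58 to 4.77). The control siRNA array of day 2 had the highest median of 11 female-biased liver genes (4.38, against -3.98 to 1.45 on the other 11).

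**Figure D1:**
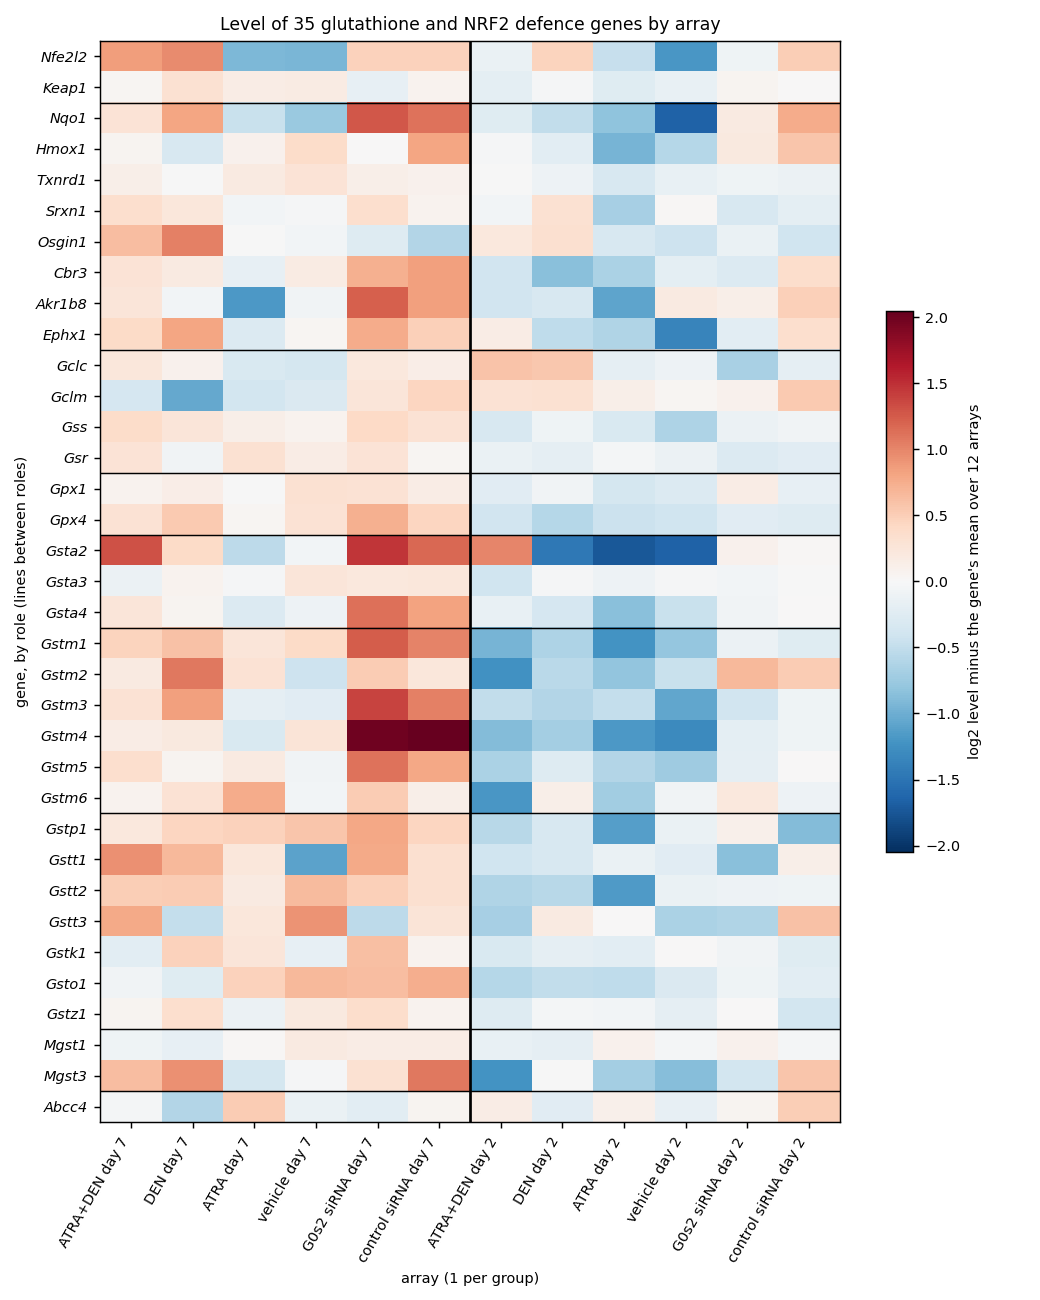
Level of the 35 measured genes (rows, grouped by role) on each of the 12 arrays (columns, day 7 left of day 2), as log2 level minus the gene's own mean over the 12 arrays, with red above and blue below that mean. Day-7 columns are redder than day-2 columns for most glutathione transferases, and Nfe2l2 is lowest on the arrays titled ATRA and vehicle.

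The first comparison asks how these genes differed with DEN, over 4 pairs of arrays matched for day and ATRA. The SE and p-values given for DEN use an estimate of spread shared with the siRNA pairs, which limma draws towards that of all genes. They therefore do not measure the spread of the 4 DEN pairs alone. No gene of the 35 passed an adjusted p of 0.05 in either direction, nor did any of the 21238 tested (0% higher and 0% lower, limma). At an unadjusted p under 0.05, 10 of the 35 were higher and 1 was lower with DEN, where 5.47% and 6.81% of all genes were. The mean difference was above 0 for 24 of the 35 (45.8% of all genes). It was above 0 in all 4 pairs for 9 (25.7%, against 9.16% of all genes) and below 0 in all 4 for 4 (11.4%, against 12.6%). The median difference was 0.14 over the 35 and -0.02 over all genes. The 35 were well above background on all 12 arrays, as were 15782 of the genes tested, and the rest were dimmer. Shares over those 15782 genes alone are given below for day only, not for DEN, ATRA, G0s2 siRNA or the interaction. The members higher in every pair were Nfe2l2, Gsta2, Nqo1, Ephx1, Osgin1, Gclc, Srxn1, Gsta4 and Gstm1, and those lower in every pair were Gsr, Gsta3, Mgst1 and Gsto1.

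Nfe2l2 itself, encoding NRF2 (probe at mm9 chr2:75513771-75513830), had the largest mean difference with DEN. Its level was 4.81 with ATRA+DEN and 4.93 with DEN at day 7, and 3.82 with ATRA+DEN and 4.41 with DEN at day 2. Without DEN it was 3.03 with ATRA and 3.02 with vehicle at day 7, and 3.48 with ATRA and 2.77 with vehicle at day 2. All 4 DEN arrays lay above all 4 arrays without DEN. The mean difference was 1.42 ± 0.28 (SE, 4 pairs), a 2.68-fold difference, with an unadjusted p of 0.00236 and an adjusted p of 0.242 in limma. The smallest of the 4 pair differences, 0.34, was that of ATRA+DEN against ATRA at day 2, and the other 3 lay between 1.64 and 1.91. Keap1, the inhibitor, was at 3.59 with ATRA+DEN and 3.87 with DEN at day 7, and 3.35 with ATRA+DEN and 3.52 with DEN at day 2. Its levels without DEN were 3.71 with ATRA and 3.72 with vehicle at day 7, and 3.30 with ATRA and 3.40 with vehicle at day 2, and the ranges overlapped (difference 0.05 ± 0.10, adjusted p 0.869, limma).

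Among the 8 oxidoreductases and stress enzymes that NRF2 is known to induce, 4 were higher in every DEN pair. Nqo1, the quinone reductase often read as the marker of NRF2 activity (mm9 chr8:109912440-109912499), had levels of -0.71 with ATRA+DEN and -0.19 with DEN at day 7, and -1.24 with ATRA+DEN and -1.49 with DEN at day 2. Without DEN the levels were -1.45 with ATRA and -1.76 with vehicle at day 7, and -1.82 with ATRA and -2.66 with vehicle at day 2. Each DEN array lay above its own partner, but the array titled DEN at day 2 lay below the array titled ATRA at day 7, so the groups overlapped. The difference was 1.01 ± 0.21 (SE, 4 pairs; 2.02-fold; adjusted p 0.245, limma), and it was 0.39 with normexp background correction. Osgin1, the oxidative stress induced growth inhibitor (mm9 chr8:121970077-121970136), was at 7.75 with ATRA+DEN and 8.13 with DEN at day 7, and 7.32 with ATRA+DEN and 7.44 with DEN at day 2. The arrays without DEN held 7.10 with ATRA and 7.06 with vehicle at day 7, and 6.78 with ATRA and 6.69 with vehicle at day 2. The 2 groups did not overlap, and the difference of 0.75 ± 0.11 (SE, 4 pairs; 1.68-fold) had the lowest adjusted p of the 35, 0.194 in limma. Ephx1, the microsomal epoxide hydrolase (mm9 chr1:182919689-182919748), was at 9.08 with ATRA+DEN and 9.50 with DEN at day 7, and 8.85 with ATRA+DEN and 8.18 with DEN at day 2, against 8.42 with ATRA and 8.74 with vehicle at day 7, and 8.08 with ATRA and 7.34 with vehicle at day 2. Its pair differences were the most alike of these 4, from 0.67 to 0.84 (mean 0.76 ± 0.15, adjusted p 0.241, limma), although the levels of the groups overlapped. A second Ephx1 probe gave a difference of 0.75.

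Srxn1, sulfiredoxin, which restores over-oxidised peroxiredoxins, was higher by 0.40 ± 0.11 (SE, 4 pairs; adjusted p 0.305, limma), with pair differences from 0.27 to 0.63. The other 4 enzymes had no common direction over the pairs. Hmox1, heme oxygenase, which breaks down heme, was at 2.61 with ATRA+DEN and 2.23 with DEN at day 7, and 2.54 with ATRA+DEN and 2.34 with DEN at day 2, against 2.65 with ATRA and 2.93 with vehicle at day 7, and 1.60 with ATRA and 1.97 with vehicle at day 2. Both DEN pairs of day 7 were below 0 and both of day 2 above 0, a difference between the days of -1.02 ± 0.35 (SE; day 7 minus day 2, unadjusted p 0.0328, adjusted p 0.660, limma). Txnrd1, thioredoxin reductase, and Cbr3, a carbonyl reductase, had mean differences of 0.00 and 0.02. Akr1b8, an aldo-keto reductase, was at 1.66 with ATRA+DEN and 1.35 with DEN at day 7, and 1.02 with ATRA+DEN and 1.08 with DEN at day 2, against 0.24 with ATRA and 1.34 with vehicle at day 7, and 0.33 with ATRA and 1.59 with vehicle at day 2, so that the arrays with ATRA alone were the lowest on both days.

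**Figure D2:**
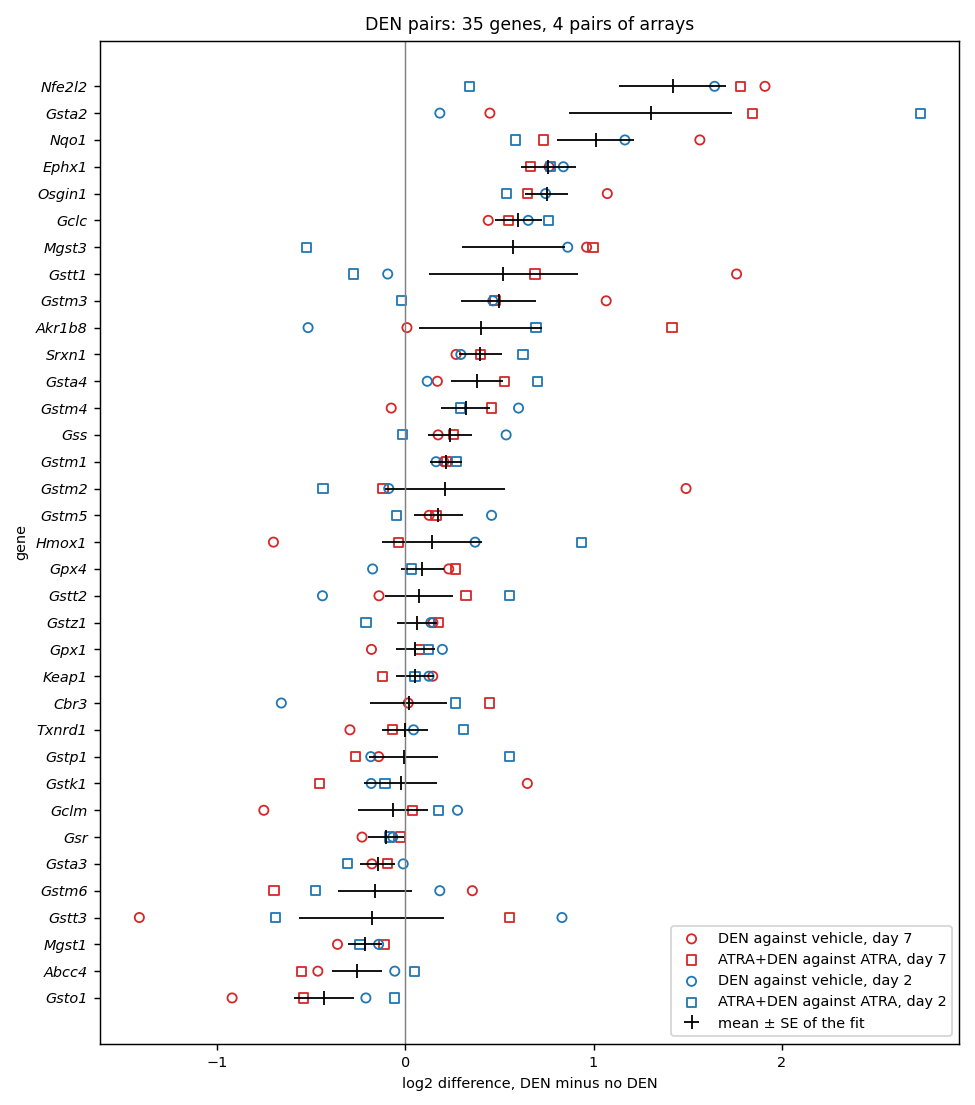
Log2 difference of DEN minus no DEN (horizontal) for each of the 35 genes (vertical, ordered by the mean), with red symbols for day 7, blue for day 2, circles for DEN against vehicle, squares for ATRA+DEN against ATRA, and black bars for the fitted mean ± SE. Nfe2l2 and Gsta2 have the largest means (1.42 and 1.30), and their pairs spread far more than those of Ephx1 or Gclc.

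Of the genes that make and recycle glutathione, Gclc, the catalytic subunit of the rate-limiting ligase (mm9 chr9:77641296-77641355), was higher with DEN in every pair, and Gclm, its modifier subunit, was not. Gclc stood at 6.23 with ATRA+DEN and 6.08 with DEN at day 7, and 6.57 with ATRA+DEN and 6.55 with DEN at day 2. Without DEN it stood at 5.68 with ATRA and 5.64 with vehicle at day 7, and 5.81 with ATRA and 5.90 with vehicle at day 2. The 2 groups did not overlap, with a difference of 0.60 ± 0.12 (SE, 4 pairs; 1.52-fold; adjusted p 0.245, limma). Gclm was at 2.11 with ATRA+DEN and 1.41 with DEN at day 7, and 2.75 with ATRA+DEN and 2.77 with DEN at day 2, against 2.07 with ATRA and 2.16 with vehicle at day 7, and 2.57 with ATRA and 2.50 with vehicle at day 2. Its level with DEN at day 7 was the lowest of the 12 arrays, and the mean difference was -0.06 ± 0.19 (adjusted p 0.916, limma). Gss differed by 0.24 ± 0.12 and Gsr, glutathione reductase, by -0.10 ± 0.10, and the peroxidases Gpx1 and Gpx4 by 0.05 ± 0.10 and 0.09 ± 0.11.

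Of the 18 measured glutathione transferases, 11 had a mean difference above 0 with DEN (45.8% of all genes did) and 7 below 0, both signs occurring among the alpha, mu and microsomal genes. In every pair 3 were higher (16.7%, against 9.16% of all genes) and 3 lower (16.7%, against 12.6%). In the alpha class Gsta2 was higher by 1.30 ± 0.43 (SE, 4 pairs; adjusted p 0.347, limma), Gsta4, which conjugates lipid aldehydes, by 0.38 ± 0.14, and Gsta3 lower by a difference of -0.15 ± 0.09. In the mu class 5 of 6 differences were above 0. Gstm1 (levels 9.06 with ATRA+DEN and 9.20 with DEN at day 7, and 7.65 with ATRA+DEN and 7.96 with DEN at day 2) exceeded its partners (8.84 with ATRA and 9.00 with vehicle at day 7, and 7.38 with ATRA and 7.80 with vehicle at day 2) in every pair by 0.16 to 0.27. Gstm3 was at 6.39 with ATRA+DEN and 6.93 with DEN at day 7, and 5.59 with ATRA+DEN and 5.50 with DEN at day 2, against 5.91 with ATRA and 5.86 with vehicle at day 7, and 5.61 with ATRA and 5.04 with vehicle at day 2, a mean difference of 0.50 ± 0.20 with 3 of 4 pairs above 0. Gstp1, the pi-class enzyme whose rat counterpart marks preneoplastic liver foci, was at 9.40 with ATRA+DEN and 9.62 with DEN at day 7, and 8.62 with ATRA+DEN and 8.87 with DEN at day 2, against 9.66 with ATRA and 9.76 with vehicle at day 7, and 8.06 with ATRA and 9.05 with vehicle at day 2. The difference of -0.01 ± 0.18 (adjusted p 0.99, limma) was within the spread between arrays.

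Genes lower with DEN in every pair had mean differences from -0.43 (Gsto1, pairs from -0.92 to -0.06) to -0.10 (Gsr). Gsto1, the omega-class enzyme, was at 6.26 with ATRA+DEN and 6.07 with DEN at day 7, and 5.75 with ATRA+DEN and 5.82 with DEN at day 2, against 6.80 with ATRA and 6.99 with vehicle at day 7, and 5.80 with ATRA and 6.03 with vehicle at day 2, a difference of -0.43 ± 0.16 (SE, 4 pairs; unadjusted p 0.0365, adjusted p 0.377, limma). Mgst1, a membrane-bound transferase, stood at 9.26 with ATRA+DEN and 9.18 with DEN at day 7, and 9.19 with ATRA+DEN and 9.17 with DEN at day 2. Without DEN it stood at 9.37 with ATRA and 9.54 with vehicle at day 7, and 9.44 with ATRA and 9.31 with vehicle at day 2. It was the 1 member of 35 whose DEN arrays all lay below those without DEN (2.86%, against 1.87% of all genes), with a difference of -0.21 ± 0.09. In the other direction 3 of 35 did not overlap, Nfe2l2, Osgin1 and Gclc (8.57%, against 1.31% of all genes). With quantile normalization the mean differences of the genes lower in every pair were -0.38 (Gsto1), -0.05 (Mgst1), -0.05 (Gsr) and -0.01 (Gsta3). The export pump Abcc4 and the transferases Gstt1, Gstt2, Gstt3, Gstk1, Gstz1, Gstm2, Gstm4, Gstm5, Gstm6 and Mgst3 had both signs over the pairs, with mean differences from -0.26 (Abcc4) to 0.57 (Mgst3).

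**Figure D3:**
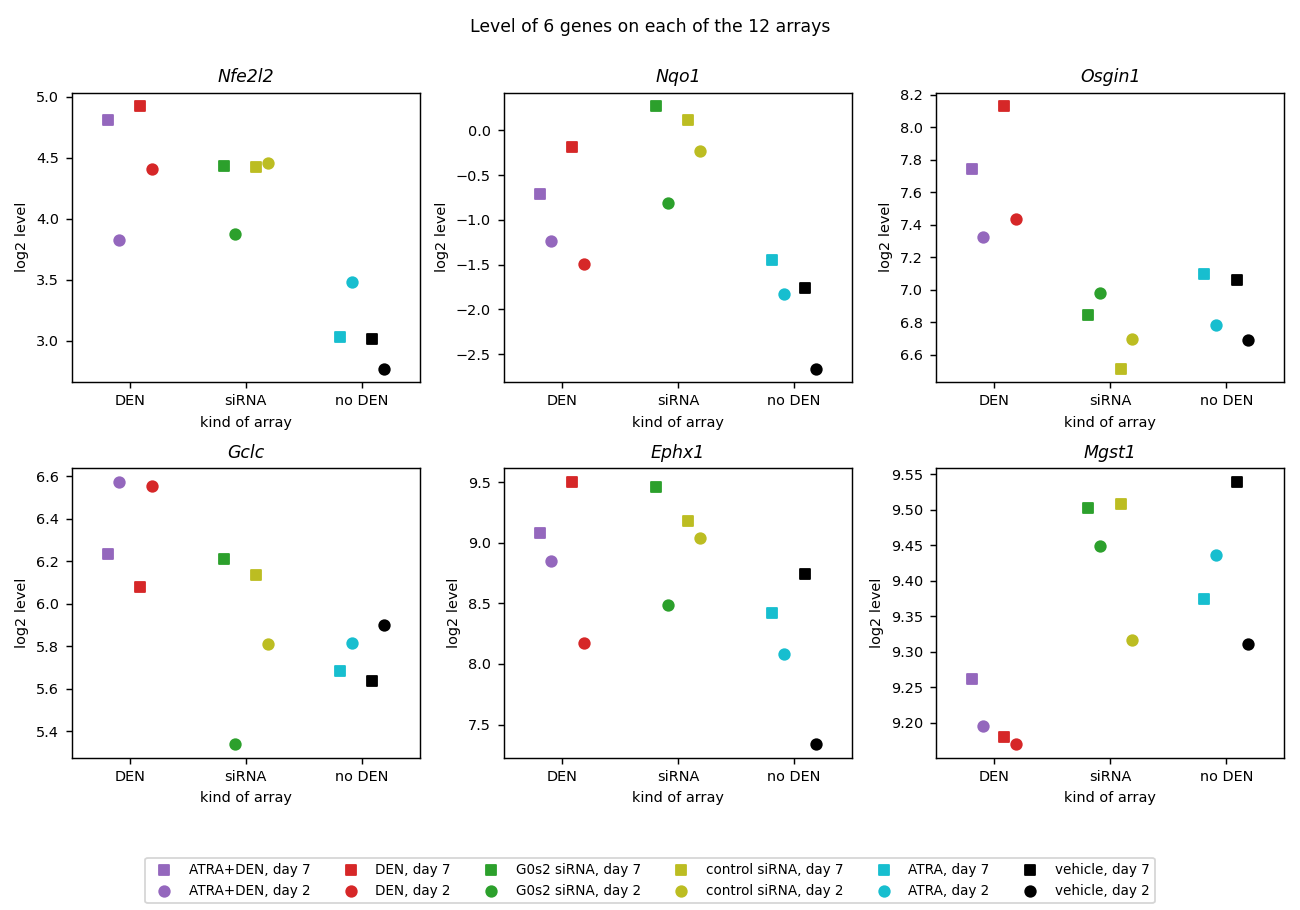
Log2 level (vertical) of 6 genes on each of the 12 arrays, by kind of array: with DEN, with siRNA, and with neither (no DEN), squares for day 7 and circles for day 2, colours for treatments. For Nfe2l2, Osgin1 and Gclc every DEN array lies above every array without DEN, for Mgst1 every one lies below, and the siRNA arrays lie with the DEN arrays for Nfe2l2 but not for Osgin1.

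Markers of other cells also differed in level with DEN, though none of these genes passed, and their part in these differences was not tested. Of 6 cholangiocyte and progenitor markers 5 had a mean difference above 0 (median 0.64), their summed linear level being 1.52 to 3.31 times the 75th percentile on the DEN arrays and 1.59 to 1.79 times on those without DEN. Between 3 and 6 of the 6 were well above background on a DEN array. Of 5 red cell markers 4 were lower in every pair, and the other 1 was higher in every pair, with a mean difference of 2.04. Their sums were 26.3 to 105.3 with DEN and 31.7 to 171 without. Of 10 hepatocyte markers 9 had a mean difference below 0 (sums of 6601 to 9537 with DEN and 7409 to 11964 without). In whole liver, fewer cells of a type and less RNA per cell cannot be told apart. Without the pair that holds the vehicle array of day 2, 12 of the 35 were higher in each of the 3 pairs left (34.3%, against 16% of all genes) and the same 4 were lower (11.4%, against 19.7%).

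The siRNA arrays, whose DEN exposure the labels leave unstated, offer the same genes in 4 other arrays. Nfe2l2 was at 4.43 with G0s2 siRNA and 4.42 with control siRNA at day 7, and 3.87 with G0s2 siRNA and 4.46 with control siRNA at day 2, all above the 4 arrays without DEN and within the range of the DEN arrays. Nqo1 was at 0.27 with G0s2 siRNA and 0.12 with control siRNA at day 7, and -0.81 with G0s2 siRNA and -0.23 with control siRNA at day 2, also all above. In all, 4 of 35 members lay wholly above the arrays without DEN, Nfe2l2, Nqo1, Gsta2 and Gsta4 (11.4%, against 3.54% of all genes), and 0 lay wholly below (3.1% of all genes). Osgin1, at 6.85 with G0s2 siRNA and 6.51 with control siRNA at day 7, and 6.98 with G0s2 siRNA and 6.70 with control siRNA at day 2, lay wholly below the 4 DEN arrays, as 2.82% of all genes did. Mgst1, at 9.50 with G0s2 siRNA and 9.51 with control siRNA at day 7, and 9.45 with G0s2 siRNA and 9.32 with control siRNA at day 2, lay wholly above them, as 3.43% did. Gclc was at 6.21 with G0s2 siRNA and 6.13 with control siRNA at day 7, and 5.34 with G0s2 siRNA and 5.81 with control siRNA at day 2, overlapping the arrays without DEN. These are descriptions of arrays of different treatments, with no test. The siRNA arrays of day 2 lay on a slide of their own. Those of day 7 shared a slide with ATRA and ATRA+DEN but not with DEN and vehicle. Treatment and slide thus cannot be told apart at day 2, and only in part at day 7.

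Gsta2 had its largest DEN differences in the pairs with ATRA. Its level was 5.52 with ATRA+DEN and 4.60 with DEN at day 7, and 5.21 with ATRA+DEN and 2.74 with DEN at day 2. Without DEN it was 3.67 with ATRA and 4.15 with vehicle at day 7, and 2.47 with ATRA and 2.56 with vehicle at day 2. ATRA+DEN exceeded ATRA by 1.84 at day 7 and 2.74 at day 2, and DEN exceeded vehicle by 0.45 and 0.18. The DEN by ATRA interaction was 1.97 ± 0.39 (SE; 1.39 at day 7 and 2.55 at day 2), with an unadjusted p of 0.00698, an adjusted p of 1 in limma, and 0 of 21238 genes passing in either direction (0%). On the siRNA arrays Gsta2 was at 5.68 with G0s2 siRNA and 5.38 with control siRNA at day 7, and 4.30 with G0s2 siRNA and 4.24 with control siRNA at day 2. The probe named Gm3776, printed above, followed it with an interaction of 1.88, and the probe named Gm10639 with 1.52.

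**Figure D4:**
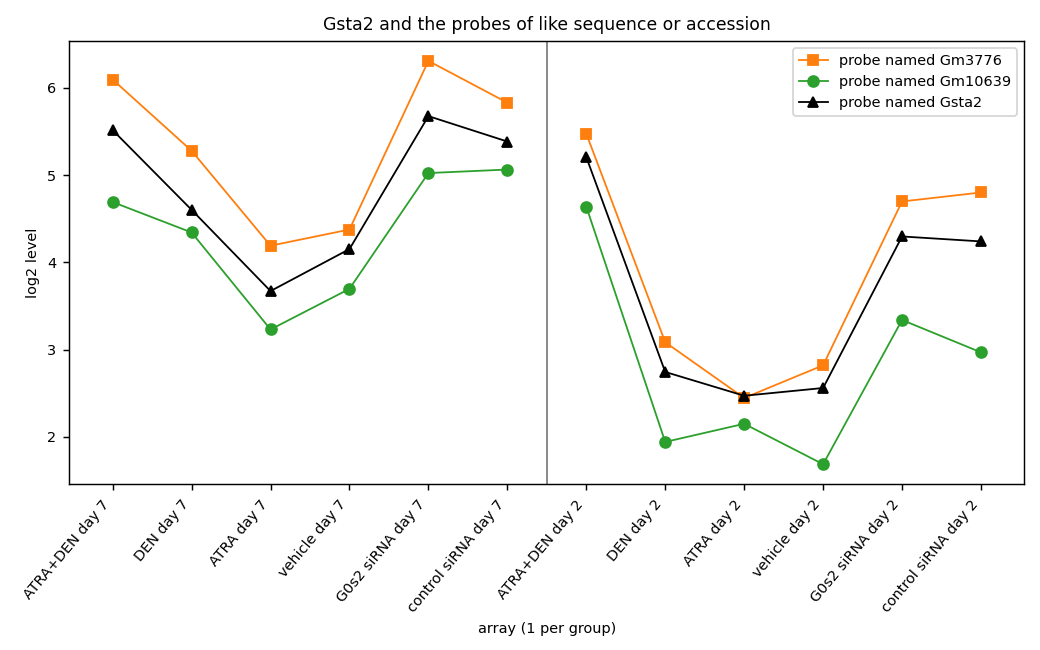
Log2 level (vertical) on each of the 12 arrays (horizontal, day 7 left of day 2) of the probe named Gsta2 and of the probes named Gm3776, which carries the accession of Gsta1, and Gm10639, which also carries that of Gsta2. All 3 are higher with ATRA+DEN than with ATRA, by 1.46 to 1.91 at day 7 and 2.49 to 3.03 at day 2.

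The mean interaction was above 0 for 20 of the 35 (54.6% of all genes), and it was above 0 on both days for 12 (26.9%) and below 0 on both for 9 (19.2%). After Gsta2, the 5 largest with one sign on both days were those above 0 of Akr1b8 (1.31 ± 0.38, SE) and Gstt2 (0.73 ± 0.25) and those below 0 of Gstm2 (-0.98 ± 0.60), Gstm6 (-0.86 ± 0.23) and Nfe2l2 (-0.71 ± 0.56), each with an adjusted p of 1.00 in limma. At an unadjusted p under 0.05, 3 of the 35 were above 0 and 1 was below, against 1.96% and 1.65% of all genes. Gstm6, a mu-class enzyme, was at 5.54 with ATRA+DEN and 5.77 with DEN at day 7, and 4.28 with ATRA+DEN and 5.59 with DEN at day 2, against 6.24 with ATRA and 5.42 with vehicle at day 7, and 4.76 with ATRA and 5.41 with vehicle at day 2, so that DEN against vehicle was above 0 and ATRA+DEN against ATRA below 0 on both days. Gstm2, of the same gene cluster, was at 6.30 with ATRA+DEN and 7.20 with DEN at day 7, and 4.88 with ATRA+DEN and 5.57 with DEN at day 2, against 6.42 with ATRA and 5.71 with vehicle at day 7, and 5.32 with ATRA and 5.66 with vehicle at day 2, and the array titled DEN at day 7 was the highest of the 12. The 3 Gstm2 probes gave interactions of -0.98, -1.05 and -1.13. The probes of Gstm3 (-0.54 and 0.06) and of Gstm4 (0.11 and -0.40) disagreed.

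ATRA by itself was compared over 4 pairs matched for day and DEN. At day 2 the arrays of a pair shared a slide. At day 7 the arrays with ATRA lay on another slide, with another scan day, than those without. In the day-7 pairs ATRA and slide therefore cannot be told apart. No member passed, nor did any gene (0% higher and 0% lower, limma). At an unadjusted p under 0.05, 1 member was higher and 0 were lower, against 3.47% and 2.34% of all genes. The difference was above 0 for 14 members (50.7% of all genes) and below 0 for 21. With normexp background correction it was above 0 for 17 and below 0 for 18. The median was -0.06 over the members and 0.00 over all genes. Abcc4, also called MRP4, which pumps conjugates and bile acids out of the cell (mm9 chr14:118882104-118882163), was the member with the lowest p. It was at -1.39 with ATRA+DEN and -0.84 with ATRA at day 7, and -1.21 with ATRA+DEN and -1.26 with ATRA at day 2. Without ATRA it was at -1.95 with DEN and -1.49 with vehicle at day 7, and -1.59 with DEN and -1.53 with vehicle at day 2. Each ATRA array was above its partner (difference 0.47 ± 0.12, SE, 4 pairs; unadjusted p 0.01, adjusted p 0.731, limma). The siRNA arrays, not titled with ATRA, overlapped the ATRA arrays. They stood at -1.58 with G0s2 siRNA and -1.31 with control siRNA at day 7, and at -1.30 and -0.85 at day 2. With normexp background correction the difference was 0.18. Gsr was the other member higher in every pair (0.16 ± 0.11), which makes 2 of 35 (5.71%, against 6.83% of all genes).

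Lower with ATRA in every pair were 6 of 35 (17.1%, against 7.1% of all genes): Keap1, Gpx1, Gsta3, Gstm1, Gstp1 and Gstt2. Gstp1 was at 9.40 with ATRA+DEN and 9.66 with ATRA at day 7, and 8.62 with ATRA+DEN and 8.06 with ATRA at day 2. Without ATRA it was at 9.62 with DEN and 9.76 with vehicle at day 7, and 8.87 with DEN and 9.05 with vehicle at day 2. The groups overlapped, and the difference was -0.39 ± 0.18 (SE, 4 pairs; adjusted p 0.876, limma), or -0.24 with quantile normalization. Gstt2, a theta-class enzyme, was at 4.77 with ATRA+DEN and 4.44 with ATRA at day 7, and 3.65 with ATRA+DEN and 3.10 with ATRA at day 2, against 4.77 with DEN and 4.91 with vehicle at day 7, and 3.69 with DEN and 4.13 with vehicle at day 2, a difference of -0.39 ± 0.21, most of it in the pairs without DEN. The differences of Gstm1 (-0.26 ± 0.11), Gsta3 (-0.23 ± 0.11), Gpx1 and Keap1 (-0.16 and -0.14) were smaller, and that of Gpx1 turned sign under another scaling of the arrays. Ephx1 was lower with ATRA in both pairs of day 7 (-0.42 and -0.32) and higher in both of day 2 (0.67 and 0.74). The difference between the days, day 7 minus day 2, was -1.08 ± 0.19 (SE; unadjusted p 0.00502, adjusted p 0.469, limma). The ATRA pairs of day 7 cross slides and those of day 2 do not, so slide may enter that difference, which was not tested.

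G0s2 encodes an inhibitor of the lipase that releases fatty acids from fat droplets, and its knockdown was compared over 2 pairs. The SE and p-values here use an estimate of spread shared with the DEN pairs, so they do not measure the spread of these 2 pairs alone. No member passed, nor did any gene (0% higher and 0% lower, limma). At an unadjusted p under 0.05, 1 member was higher and 0 were lower (4.08% and 2.71% of all genes). The median difference was 0.03 over the 35 and 0.06 over all genes. It was above 0 in both pairs for 11 members (36.4% of all genes were) and below 0 in both for 8 (20.7%). The mean difference was above 0 for 21 members (59.8% of all genes), and for 9 with quantile normalization, so no direction is given for the group. Gstt3, of the theta class, was at 3.88 with G0s2 siRNA and 4.69 with control siRNA at day 7, and 3.80 with G0s2 siRNA and 5.02 with control siRNA at day 2, the largest difference of the 35 (-1.01 ± 0.55, SE, 2 pairs; adjusted p 0.698, limma). Mgst3, a microsomal transferase and peroxidase, was at 2.07 with G0s2 siRNA and 2.82 with control siRNA at day 7, and 1.38 with G0s2 siRNA and 2.32 with control siRNA at day 2, and Hmox1 at 2.57 with G0s2 siRNA and 3.36 with control siRNA at day 7, and 2.76 with G0s2 siRNA and 3.13 with control siRNA at day 2. Both were lower with G0s2 siRNA on both days, by differences of -0.85 ± 0.39 and -0.58 ± 0.37.

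Gstp1 was the member at an unadjusted p under 0.05 (0.0386, adjusted p 0.697, limma), at 9.98 with G0s2 siRNA and 9.63 with control siRNA at day 7, and 9.30 with G0s2 siRNA and 8.30 with control siRNA at day 2, a difference of 0.68 ± 0.26. Cbr3 was at -0.25 with G0s2 siRNA and -0.13 with control siRNA at day 7, and -1.25 with G0s2 siRNA and -0.62 with control siRNA at day 2 (difference -0.38 ± 0.29), and Gstk1, the kappa-class enzyme of mitochondria and peroxisomes, at 6.99 with G0s2 siRNA and 6.44 with control siRNA at day 7, and 6.29 with G0s2 siRNA and 6.12 with control siRNA at day 2 (difference 0.36 ± 0.27). The difference of Cbr3 was -0.20 with normexp, and that of Gstk1 0.20 with quantile normalization. Other lists also differed in level in these pairs, though none of their genes passed. All 10 male-biased liver genes measured had a difference above 0 (median 1.04) and 10 of 11 female-biased ones below 0 (median -2.17). Of 9 Kupffer cell markers 8 were below 0 (median -0.53), their summed level being 44.1 to 131 times the 75th percentile with G0s2 siRNA and 77.9 to 217 times with control siRNA. At least 8 markers of this list were well above background on each siRNA array. Their part in the differences of Gstt3, Mgst3, Hmox1 and Gstp1 was not tested.

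Day 7 against day 2 was the comparison in which members passed. Over 6 pairs, each of 1 treatment, 18 of the 35 rose and 0 fell at an adjusted p of 0.05 in limma. At an unadjusted p under 0.05, 22 were higher (31.1% of all genes) and 0 lower (23.7%). Of all genes tested 26.3% were called higher and 20.5% lower, and of the 15782 genes well above background on all 12 arrays, as the 35 are, 35.6% and 16.4%. The difference was above 0 for 32 members, against 56.7% of all genes and 65.7% of those above background throughout, and in all 6 pairs for 20 (57.1%, against 25% of all genes and 31.8% of those above background throughout). The median was 0.51 over the 35 and 0.11 over all genes. Each day lies on slides and scan days of its own, so day and slide cannot be told apart.

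The glutathione transferases carried most of the calls: 11 of 18 rose, and all 18 differences were above 0, those of Gsta3 and Mgst1 turning below 0 under another scaling. The mu class is encoded by a cluster on chromosome 3. Gstm4 lay between 4.34 and 6.69 (median 4.87) on the day-7 arrays and between 3.33 and 4.55 (median 3.85) on the day-2 arrays, and rose by 1.45 ± 0.22 (SE, 6 pairs; 2.74-fold; adjusted p 0.00254, limma). The 2 siRNA arrays of day 7 were the highest, at 6.64 with G0s2 siRNA and 6.69 with control siRNA, and the 2 day ranges overlapped. A second Gstm4 probe gave a difference of 0.90. Gstm1 lay between 8.84 and 9.84 (median 9.13) on the day-7 arrays and between 7.38 and 8.47 (median 7.88) on the day-2 arrays, without overlap. It rose by 1.32 ± 0.09 (SE, 6 pairs; 2.50-fold) with the lowest adjusted p of the members, 0.000273 in limma, and its 6 pair differences all lay between 1.20 and 1.46. The array file places its brightest probe on chr5 of mm9 (chr5:117082490-117082549), while the second probe lies on chr3 and gave a difference of 1.59. Gstm3 lay between 5.86 and 7.48 (median 6.66) on the day-7 arrays and between 5.04 and 6.00 (median 5.60) on the day-2 arrays and rose by 1.04 ± 0.19 (adjusted p 0.005, limma), and Gstm5 rose by 0.81 ± 0.14. Gstm2 and Gstm6 differed by 0.63 ± 0.30 and 0.58 ± 0.23 and did not pass. These 6 genes are alike in sequence, and how far their probes share RNA was not tested.

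In the other classes Gsta2 lay between 3.67 and 5.68 (median 4.99) on the day-7 arrays and between 2.47 and 5.21 (median 3.49) on the day-2 arrays and rose by 1.25 ± 0.20 (SE, 6 pairs; 2.37-fold; adjusted p 0.00283, limma). Gstp1 lay between 9.40 and 9.98 (median 9.64) on the day-7 arrays and between 8.06 and 9.30 (median 8.74) on the day-2 arrays, without overlap, and rose by 0.98 ± 0.16 (adjusted p 0.00287, limma). Gstt2 lay between 4.44 and 4.91 (median 4.76) on the day-7 arrays and between 3.10 and 4.18 (median 3.91) on the day-2 arrays, also without overlap, and rose by 0.89 ± 0.15 (adjusted p 0.00323, limma). Mgst3 rose by 0.86 ± 0.20, Gsto1 by 0.74 ± 0.13, Gsta4 by 0.63 ± 0.14 and Gstz1, which acts in tyrosine breakdown, by 0.31 ± 0.10. Gstt1, Gstt3 and Gstk1 did not pass, and the 2 Gstt1 probes disagreed (0.62 and -0.14).

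Outside the transferases, Gpx4, which reduces lipid hydroperoxides in membranes, lay between 7.19 and 7.88 (median 7.52) on the day-7 arrays and between 6.57 and 6.91 (median 6.75) on the day-2 arrays and rose by 0.78 ± 0.11 (SE, 6 pairs; adjusted p 0.00211, limma). Gpx1, which reduces hydrogen peroxide, rose by 0.32 ± 0.10. Nqo1 lay between -1.76 and 0.27 (median -0.45) on the day-7 arrays and between -2.66 and -0.23 (median -1.37) on the day-2 arrays and rose by 0.76 ± 0.16 (0.35 with normexp), Ephx1 rose by 0.74 ± 0.21 and Cbr3 by 0.67 ± 0.13. Of the glutathione-making genes Gss rose by 0.51 ± 0.10 and Gsr by 0.33 ± 0.10, although a second Gsr probe gave 0.08. Gclc differed by 0.00 ± 0.19, and Gclm by -0.46 ± 0.20 (adjusted p 0.0913, limma). Nfe2l2, Keap1, Hmox1, Txnrd1, Srxn1, Osgin1, Akr1b8, Gsta3, Mgst1 and Abcc4 had differences between -0.14 and 0.34 and did not pass, and the 2 Hmox1 probes disagreed (0.34 and -0.46). The ranges of the 2 days did not overlap for 6 members, Txnrd1, Gss, Gpx4, Gstm1, Gstp1 and Gstt2, all higher at day 7 though Txnrd1 turned below 0 on average under another scaling (17.1%, against 13.9% of all genes), and for 0 lower (11.4% of all genes).

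**Figure D5:**
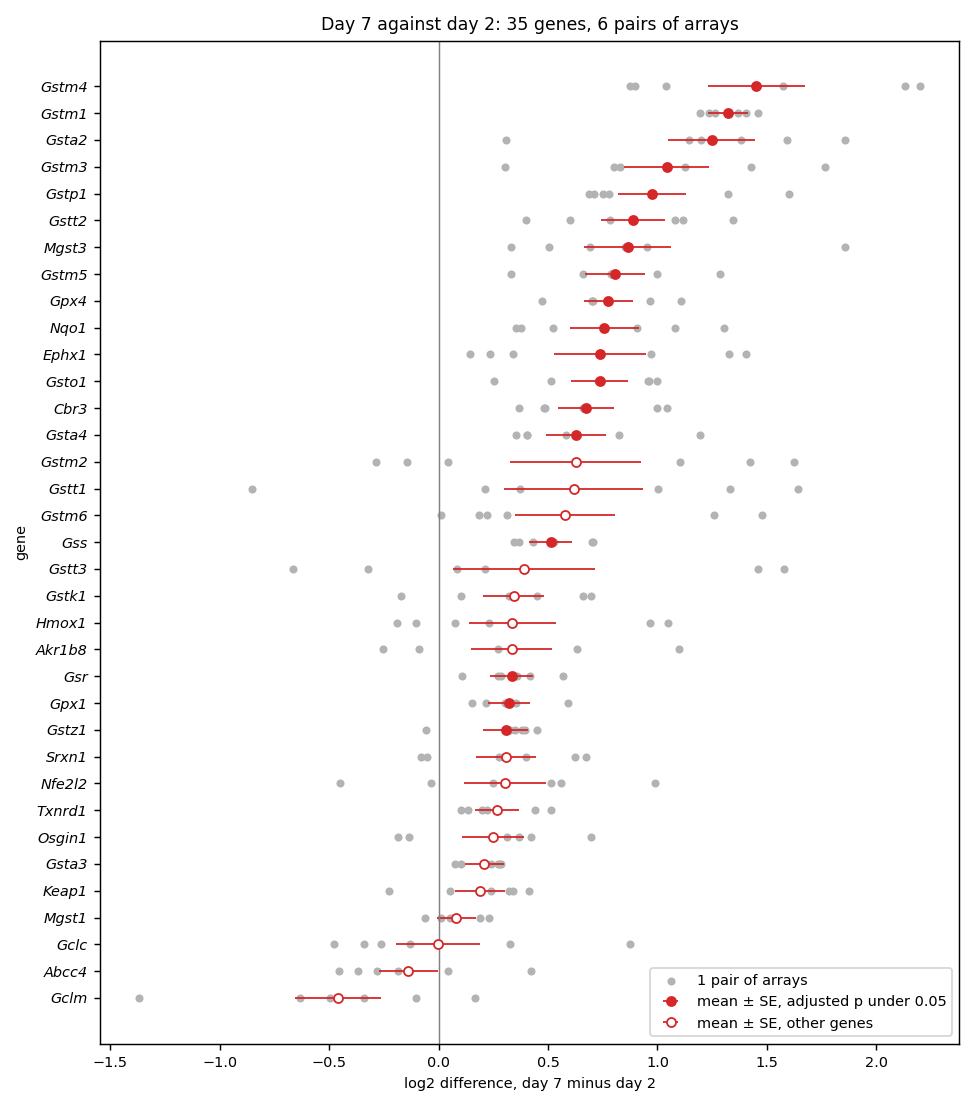
Log2 difference of day 7 minus day 2 (horizontal) for each of the 35 genes (vertical, ordered by the mean), with grey points for the 6 pairs of arrays and red points with bars for the fitted mean ± SE, filled where the adjusted p is under 0.05. The 18 filled points all lie above 0, and the pairs of Gstm1 are the tightest among the large differences.

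How many members rose depended on how arrays were scaled. With the percentile taken over probes above background on every array, the median of all genes was -0.14, against 0.11, and the calls over all genes split into 11.5% higher and 29% lower. Of the 35, 12 then rose and 1, Gclm, fell. With quantile normalization 13 rose and Gclm fell, and with normexp background correction 22 rose. Relative to the median of all genes, the members' median was 0.40 higher with either percentile, 0.27 with quantile normalization and 0.31 with normexp. Under all 4 scalings 12 members rose: Nqo1, Cbr3, Gpx4, Gsta2, Gstm1, Gstm3, Gstm4, Gstm5, Gstp1, Gstt2, Gsto1 and Mgst3. The differences of Cbr3 (0.37 with normexp), Gpx4 (0.50 with quantile normalization) and Gsto1 (0.45 with quantile normalization) were smaller there. The other 6, Ephx1, Gsta4, Gss, Gsr, Gpx1 and Gstz1, did not pass with the percentile over detected probes, with differences of 0.06 (Gstz1) to 0.49 (Ephx1), and all of them but Gpx1 did not pass with quantile normalization. Marker lists also differed by day, and their part was not tested. The summed level of 10 hepatocyte markers was 6499 to 7881 times the 75th percentile at day 7 and 9076 to 11964 times at day 2, with 2 of the 10 called higher and 5 lower. Of 6 cholangiocyte markers 4 were called higher (sums of 1.71 to 3.15 at day 7 and 1.52 to 3.31 at day 2). Of 10 male-biased genes 6 were called higher, and of 11 female-biased genes 6 were called lower.

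A further 8 lists of the pathway, with 89 measured genes, were read beside the members. With DEN 0 of the 89 passed, and the median was -0.01. The difference was above 0 for 40, as for 45.8% of all genes, and below 0 for 49. In every pair 7.87% were higher and 14.6% lower, against 9.16% and 12.6% of all genes. These shares are near those of all genes, so the genes named are given as a description. The largest difference with one sign in every pair was that of Gsto2, a second omega-class transferase (1.30, adjusted p 0.221, limma). Of 10 regulators and partners of NRF2, Mafk, a small MAF protein, was the 1 with one sign in every pair (0.50). Of 19 thioredoxin, peroxiredoxin and antioxidant enzymes 15 were below 0, among them Msra, which repairs oxidised methionine (-0.48), and Glrx, glutaredoxin (-0.45). Among 17 other NRF2 targets Ces1g, a carboxylesterase, differed by 0.90 and Ugt1a6a, a glucuronosyltransferase, by -0.48. Cbs and Cth, which turn homocysteine into cysteine, differed by 0.48 and 0.33, and Idh1 and Tkt, of the NADPH supply, by -0.29 and -0.14. With ATRA, with G0s2 siRNA and for the interaction 0 of the 89 passed. With ATRA Ces1g differed by -0.90, and with G0s2 siRNA Cyp2b10, a cytochrome P450 induced through CAR, by -3.27 and Mat1a, which makes S-adenosylmethionine, by -1.02, the last 2 beside the shift of sex-biased genes given above.

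At day 7, 32 of the 89 were called higher and 6 lower, with arrays scaled to the 75th percentile of all probes. The same calls were made for 26.3% and 20.5% of all genes, and for 35.6% and 16.4% of those above background throughout, so the count higher is near that background and is given as a description. Maff, another small MAF protein, rose by 1.49 (adjusted p 0.00035, limma) and Mafk by 0.49. Of the antioxidant enzymes 11 of 19 rose, Glrx by 0.82, and 1 fell, Glrx2, the mitochondrial glutaredoxin, by 0.96 on the log2 scale. Of the other glutathione enzymes 4 of 16 rose and 2 fell, with Gsto2 higher by 1.07 and Oplah, which recycles 5-oxoproline to glutamate, by 0.96. Gnmt and Slc3a2, of the cysteine supply, rose by 0.87 and 0.87. Of 6 genes of the NADPH supply 1 rose, Taldo1 (0.40), and 1 fell, Idh1, by 0.88. Among the other NRF2 targets 8 of 17 rose, Aox1, an aldehyde oxidase, by 0.78, and 2 fell, Ugt1a6a by 1.04. Of 8 genes of CAR, PXR and their targets 1 rose, Por, the electron donor of cytochrome P450 (0.70), and of 5 AHR targets 0 passed.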

How the data were processed

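Total RNA of mouse liver was hybridised to 12 Agilent 1-colour arrays. The deposited array files hold spot intensities from which Agilent Feature Extraction had subtracted background, per the file headers, which give its version as 10.7.1.1. In the submitters' processing notes the version is 9.5.1.1. The deposited series table holds intensities the authors had normalized, and it served only as an alternative, within a day.

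Spots marked as outliers were left out. The remaining deposited intensities were taken to log2, averaged over the spots of a probe and set relative to the 75th percentile of the array. The brightest probe stood for a gene, and a gene entered the tests where that probe exceeded background clearly on 2 or more arrays. The accession on the array led to the same RefSeq symbol for all 38 genes with a probe. Tests used limma 3.58.1 (R 4.3.3), with p-values adjusted by Benjamini and Hochberg's method over 21238 genes and a threshold of 0.05. The pair of arrays was the block for DEN, ATRA and G0s2 siRNA, slide for the interaction, and treatment for day. DEN and siRNA pairs shared 1 estimate of spread. The code was tested on simulated data. With 1 array per group, the number of arrays limits the precision.

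Genes named with their levels were Nfe2l2, Keap1, Nqo1, Hmox1, Gclc, Gclm, Gsta1, Gsta2, Gstm1, Gstm3 and Gstp1 and, for each comparison, up to 6 members with the largest difference of one sign in every pair. The levels of Gsto1, Mgst1 and Gpx4 were added after their values were seen. Of each other list, up to 2 genes were named. Alternatives were other scalings, filters, probe choices, blocks and labels, and leaving out each pair. The members and lists were chosen with earlier results of these data known.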

Additional observations from a re-analysis of the deposited data

Results flagged for a closer look

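The 3 members that were too dim to be tested showed a signal well above background on a single array each, outside the comparisons made. Akr1b7, an aldo-keto reductase, was well above background on the control siRNA array of day 7 (-2.57 relative to the 75th percentile of that array). Its level on the ATRA array of day 7, at -2.67, was close to that. Slc7a11, the cystine importer, was so on the vehicle array of day 7 (-0.97), its levels on the other 11 arrays lying between -5.85 and -5.09. Mgst2, a microsomal transferase, was so on the control siRNA array of day 2 (-2.90), and its level on the DEN array of day 7, at -3.01, was close to that. Each group has 1 array, so there is no second array to set these values against.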

How the results depend on the processing

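Over 45 results and 527 alternatives, 514 kept their direction and side of the threshold or stayed close to their value, 10 moved, 2 turned and 1 lost its call. Much of this was fixed in advance. The genes followed had one sign in every pair, which leaving out a pair cannot turn. Outside the day comparison no gene passed at first, so no call could be lost. The count is therefore no measure of robustness. The treatments named by the characteristic for day 7 moved the median difference of the members to 0.0737 for DEN and -0.14 for the interaction, turned Gsr with ATRA to -0.0220 and the interaction of Akr1b8 to -0.11, and left the day difference of Gsta2 at 1.25 with an adjusted p of 0.0825 in limma. The members' day median was 0.30 with quantile normalization, 0.38 with normexp and 0.26 with the percentile over detected probes, an alternative chosen after seeing the data, as was leaving out the vehicle array of day 2. With 1 pair or day left out, the members' median ranged from 0.12 to 0.18 for DEN, -0.0959 to -0.00263 for ATRA, -0.05 to 0.17 for G0s2 siRNA, -0.0729 to 0.0813 for the interaction and 0.44 to 0.54 for day, where 15 to 16 members passed. The ATRA median without the ATRA and vehicle arrays of day 7 was -0.00263, and the interaction without day 7 was -0.0729. Genes passing over the whole array with normexp numbered 9 for DEN and 4 for G0s2 siRNA, and 1 for G0s2 siRNA without its day-2 pair, against 0. The cause of these shifts was not tested. With 1 array per group, differences within the spread of the pairs were not detectable.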
